A study of Mus musculus and Rattus norvegicus with 96 samples.

Results

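The 8 genes described here are cytochrome P450 genes measured in mouse liver. They are 6 genes of the Cyp3a subfamily (Cyp3a11, Cyp3a13, Cyp3a16, Cyp3a25, Cyp3a41a and Cyp3a59) and both genes of the Cyp1a subfamily (Cyp1a1 and Cyp1a2), chosen by name among 24543 gene rows. The count table lists 9 Cyp3a rows in all, so that Cyp3a41b, Cyp3a44 and Cyp3a57 stand outside the set. Values are in CPM, the reads of a gene per 1000000 reads counted over all genes of its library. Of the 8 genes, 6 passed the filter on low counts, and Cyp3a16 and Cyp3a41a did not.

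Liver came from 12 male B6C3F1 mice, a hybrid of the C57BL/6 and C3H strains, aged 10 to 11 weeks. Of these, 6 drank plain water (Con) and 6 drank water with phenobarbital (PB) at 600 ppm for 7 days. Liver of every mouse was prepared in 4 ways: frozen (FR), fixed fresh in formalin and embedded in paraffin (FFPE), frozen and then formalin-fixed and embedded (FR > FFPE), or frozen and then placed in 70% ethanol and embedded (FR > OH). The 8 groups of preparation by treatment therefore held 6 libraries each, 48 in all, and the same 6 mice stood behind all 4 preparations of a treatment. RNA of FR samples was taken with another reagent than RNA of the embedded samples, so that preservation and extraction cannot be told apart in any comparison with FR.

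Both subfamilies encode haem enzymes of the endoplasmic reticulum that oxidise drugs, steroids and pollutants, and both are studied mainly in the liver. Cyp3a genes are textbook targets of the nuclear receptors PXR (encoded by Nr1i2) and CAR (encoded by Nr1i3), which pair with RXR and bind repeats of a short hexamer in DNA. Phenobarbital is the classic activator of CAR. Cyp1a genes are the textbook targets of the aryl hydrocarbon receptor (AhR), which pairs with Arnt and binds a GCGTG core after dioxin-like compounds enter the cell. Cyp1a2 is made constitutively by hepatocytes, whereas Cyp1a1 is nearly silent in liver without an AhR ligand.

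In the annotation of the count table (RefSeq on GRCm38), 5 of the 6 Cyp3a genes lay close together on chromosome 5. They were Cyp3a16 (chr5:145436309-145469723, minus strand), Cyp3a41a (chr5:145558664-145720136, minus strand), Cyp3a11 (chr5:145854607-145879854, minus strand), Cyp3a25 (chr5:145977194-146009618, minus strand) and Cyp3a59 (chr5:146079258-146113283, plus strand). The row of Cyp3a41a spanned that of Cyp3a41b. Cyp3a13 stood apart on the same chromosome (chr5:137892933-137921619, minus strand). Both Cyp1a genes were neighbours on chromosome 9, with Cyp1a2 on the minus strand (chr9:57676937-57683655) and Cyp1a1 on the plus strand (chr9:57687928-57703824).

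Promoter sequences of RefSeq (GRCm38.p6) were searched for the letters that PXR, CAR and AhR are known to bind, and 5 of them are shown because these genes carried the contrast between the families. Each run holds the 250 bases before the transcription start, 5′ to 3′ on the gene's own strand. Capitals mark matches, on either strand, to a nuclear receptor motif of 6 bases (AGGTCA), to its variant (AGTTCA), or to the AhR core (GCGTG). For Cyp3a25 the second of 2 RefSeq starts is shown, and the Cyp1a1 start lies inside the row's span. The Cyp3a11 run is chr5:145879855-145880104 and the Cyp3a25 run is chr5:146009618-146009867, both on the minus strand. The Cyp3a59 run is chr5:146079008-146079257 on the plus strand, the Cyp1a1 run is chr9:57697363-57697612 on the plus strand, and the Cyp1a2 run is chr9:57683656-57683905 on the minus strand.
Cyp3a11: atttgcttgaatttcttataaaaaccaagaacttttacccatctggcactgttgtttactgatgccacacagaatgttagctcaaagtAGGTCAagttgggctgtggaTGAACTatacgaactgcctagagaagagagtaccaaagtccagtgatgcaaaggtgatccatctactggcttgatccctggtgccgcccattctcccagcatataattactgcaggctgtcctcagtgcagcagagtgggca
Cyp3a25: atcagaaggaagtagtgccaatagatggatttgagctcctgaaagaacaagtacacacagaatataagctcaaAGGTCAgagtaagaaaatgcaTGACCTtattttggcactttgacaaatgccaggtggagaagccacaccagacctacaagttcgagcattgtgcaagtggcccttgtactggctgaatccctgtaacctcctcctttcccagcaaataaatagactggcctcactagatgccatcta
Cyp3a59: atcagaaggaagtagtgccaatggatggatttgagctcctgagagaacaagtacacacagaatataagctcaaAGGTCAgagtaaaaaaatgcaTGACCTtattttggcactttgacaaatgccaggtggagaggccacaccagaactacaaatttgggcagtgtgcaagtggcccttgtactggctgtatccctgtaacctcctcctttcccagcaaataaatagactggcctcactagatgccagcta
Cyp1a1: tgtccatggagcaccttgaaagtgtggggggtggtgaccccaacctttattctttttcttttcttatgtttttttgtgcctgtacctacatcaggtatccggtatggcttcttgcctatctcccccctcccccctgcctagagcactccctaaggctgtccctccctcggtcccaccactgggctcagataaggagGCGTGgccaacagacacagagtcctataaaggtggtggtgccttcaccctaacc
Cyp1a2: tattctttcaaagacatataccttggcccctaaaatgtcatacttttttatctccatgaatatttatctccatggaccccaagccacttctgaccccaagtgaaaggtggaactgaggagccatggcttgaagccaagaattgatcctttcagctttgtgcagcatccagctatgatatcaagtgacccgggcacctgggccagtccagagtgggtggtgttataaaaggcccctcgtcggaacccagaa

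Cyp3a11 held AGGTCA starting 162 bases before the start and AGTTCA on the other strand at 142 bases. Cyp3a25 and Cyp3a59 each held AGGTCA at 177 and, on the opposite strand, at 156 bases, and their promoters were alike at 95.6% of the aligned bases. Cyp3a41a held AGTTCA at 130 bases, and Cyp1a1 held GCGTG at 54 bases. No match to these letters was found in the windows of Cyp3a13, Cyp3a16 and Cyp1a2. Among 32851 promoters of the same length, 14.0% held AGGTCA, 11.8% held AGTTCA and 28.2% held GCGTG, so that single matches were common. The longer letters TNGCGTG stood in 4.10% of promoters. Direct repeats of the 6-base motifs with 3 or 4 bases between, or everted repeats with 6 between, stood in 0.0122%, 0.0244% and 0.00913% of promoters and in none of the 8 genes' windows.

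Near-identical copies limited how surely reads could be assigned. Of the 50-base stretches of the Cyp3a41a transcript, 93.7% were also in Cyp3a41b, so that Cyp3a41a values are uncertain. Cyp3a25 shared 24.6% of its stretches with Cyp3a59. Cyp3a11 shared 14.7% with at least one other of the 9 Cyp3a and 2 Cyp1a rows, and Cyp3a13 shared none. Cyp1a1 and Cyp1a2 had 94 stretches in common, or 3.4% of those of Cyp1a1 and 5.0% of those of Cyp1a2. The authors' estimated counts were whole to within 0.01 in all 48 libraries for Cyp3a13, in 28 for Cyp3a11, in 10 for Cyp1a2, in 3 for Cyp1a1, in 1 for Cyp3a59 and in 0 for Cyp3a25. The sum of Cyp1a1 and Cyp1a2 was whole in 38 libraries, which shows reads being divided between this pair.

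Library totals over all genes ran from 11737338 to 13702672 in FR, from 4952797 to 6760422 in FFPE, from 5534973 to 10681783 in FR > FFPE and from 8167321 to 11539022 in FR > OH. Gene rows took 46.6% to 51.8% of total reads in FR and 21.4% to 27.5% in FFPE, with the other preparations between. Total reads here are the divisor inferred from the counts and the authors' log2 CPM. The hepatocyte markers of a list of 5 summed to group means of 24336 to 68823 CPM, whereas those of 3 enterocyte markers summed to 0.241 to 0.618 CPM, with Cdx2 at 0 in every group. The labelled liver was thus seen in every group. In bulk tissue, fewer cells of a type and less RNA per cell cannot be told apart, which holds for every level below.

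Per kilobase of transcript, Cyp1a2 and Cyp3a25 were the most abundant of the 8 genes in frozen liver of Con mice, and Cyp3a11 moved to the top with PB. In FR Con, Cyp1a2 had 188 ± 46.2 CPM per kb (SD, n = 6) and Cyp3a25 had 166 ± 35.5, and their ranges overlapped. Cyp3a11 followed with 59.8 ± 36.1 and Cyp3a13 with 33.7 ± 5.14, which also overlapped. Below them were Cyp3a59 (3.12 ± 1.12 CPM per kb) and Cyp1a1 (0.355 ± 0.140). Cyp3a41a (mean 0.0230) and Cyp3a16 (mean 0.00758) were close to nothing.

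In FR PB, the order per kilobase opened with Cyp3a11 at 3459 ± 1032 CPM per kb, whose lowest library (2434) lay far above the highest of Cyp1a2 (669). Cyp1a2 had 575 ± 77.2 CPM per kb and Cyp3a25 had 443 ± 62.2, with overlapping ranges. Cyp3a13 had 64.3 ± 26.5 and Cyp3a59 had 23.2 ± 7.22, and each stood apart from its neighbours. The order ended with Cyp1a1 (0.503 ± 0.0887), Cyp3a41a (0.371 ± 0.231) and Cyp3a16 (0.348 ± 0.144), which overlapped each other.

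**Figure D1:**
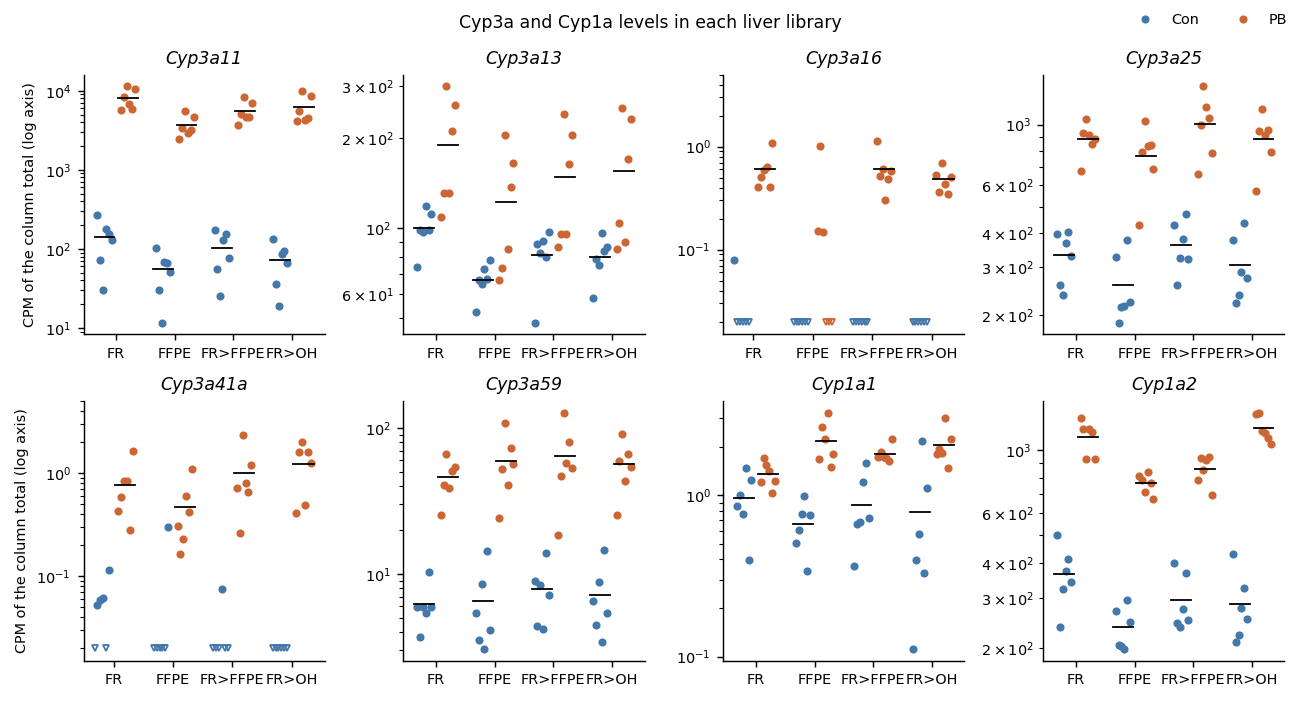
Level of each of the 8 genes in every library, in CPM on a log axis, by preparation and treatment (6 libraries per group, black bars are group means, open triangles at the foot are libraries with no reads). Cyp3a11, Cyp3a25, Cyp3a59 and Cyp1a2 of all PB mice lie above all Con mice in each preparation, whereas those of Cyp3a13 overlap in each.

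Cyp3a11, the chief steroid- and drug-oxidising Cyp3a enzyme of male mouse liver, rose most among the members tested. In FR its Con libraries ran from 30.3 to 271.6 CPM with a median of 143, and its PB libraries from 5705 to 11357 with a median of 7530. The lowest PB mouse exceeded the highest Con mouse 21.0-fold. The log2 difference was 5.86 ± 0.51 (SE), or 57.9-fold, with an adjusted p of 2.9e-12. In each preparation, p-values came from edgeR's quasi-likelihood test with Benjamini-Hochberg adjustment over 13370 genes, and a gene was called when the adjusted p was under 0.05 and the change at least 2-fold.

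PB-induced Cyp3a11 was also seen in the embedded preparations. FFPE libraries ran from 11.7 to 102 CPM (median 59.1) in Con and from 2418 to 5480 CPM (median 3287) in PB, a log2 difference of 6.05 ± 0.52 (adjusted p = 1.73e-12). FR > FFPE libraries ran from 25.2 to 173 CPM (median 104) and from 3678 to 8371 CPM (median 4919), a log2 difference of 5.77 ± 0.51 (adjusted p = 4.14e-12). FR > OH libraries ran from 18.8 to 135 CPM (median 76.1) and from 4093 to 9851 CPM (median 5036), a log2 difference of 6.40 ± 0.52 (adjusted p = 2.91e-13). No PB library overlapped a Con library in any preparation. With rows that share reads with Cyp3a11 summed into it, the difference in FR was 5.85.

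Genes called higher in PB made up 1.74% of the genes tested in FR. The share was 1.65% in FFPE, against 1.71% for FR > FFPE and 2.12% for FR > OH. Against these shares, 4 of the 6 members tested were called higher in FR and in FR > FFPE, and 5 in FFPE and in FR > OH. Cyp3a11, Cyp3a25, Cyp3a59 and Cyp1a2 were called in all 4 preparations, and Cyp1a1 was the gene that made the difference. As both families are known targets of such treatments and were chosen with this in mind, the counts are a description.

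Cyp3a25, a Cyp3a enzyme abundant in untreated liver, rose by a much smaller factor from a higher level. FR libraries ran from 237 to 404 CPM (median 348) in Con and from 674 to 1053 CPM (median 901) in PB. The log2 difference was 1.42 ± 0.20 in FR (adjusted p = 7.25e-07), 1.58 ± 0.20 in FFPE, and it was 1.47 ± 0.20 for FR > FFPE and 1.54 ± 0.20 for FR > OH. All 6 PB mice lay above all 6 Con mice in each preparation, although the margin was narrow in FFPE, where Con reached 377 CPM and PB began at 429.

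Cyp3a59, whose promoter and transcript resemble those of Cyp3a25, rose more steeply from a low level. FR libraries ran from 3.69 to 10.4 CPM (median 5.91) in Con and from 25.2 to 66.7 CPM (median 45.7) in PB, and the groups did not overlap. The log2 difference was 2.89 ± 0.38 in FR (adjusted p = 2.38e-07), 3.18 ± 0.41 in FFPE, and it was 3.02 ± 0.39 for FR > FFPE and 2.99 ± 0.39 for FR > OH. Within a library, the ratio of Cyp3a59 to Cyp3a25 rose 2.76-fold with PB in FR, 3.20-fold in FFPE, 2.77-fold in FR > FFPE and 2.82-fold in FR > OH (exact two-sided permutation test over 6 against 6 mice, p = 0.00216 in FR, the smallest this design allows, and 0.00433 in FR > FFPE). With both rows summed, the log2 difference in FR was 1.46. Cyp3a59 made up 1.84% of that sum in FR Con and 4.87% in FR PB, so the summed value mainly follows Cyp3a25. The sum was whole in only 6 of 48 libraries, so that summing did not remove the division of reads. Whether shared reads made part of the Cyp3a59 rise was not tested.

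Cyp3a13, the member farthest from the cluster and known also from intestine, was higher in PB by less than 2-fold. FR libraries ran from 74.1 to 118 CPM (median 98.3) in Con and from 109 to 299 CPM (median 171) in PB. The log2 difference was 0.93 ± 0.27 in FR (adjusted p = 0.0204), 0.86 ± 0.28 in FFPE (adjusted p = 0.0484), 0.87 ± 0.27 in FR > FFPE (adjusted p = 0.0406) and 0.97 ± 0.27 in FR > OH (adjusted p = 0.0132). The groups overlapped in every preparation, and 5, 4, 3 and 4 of the 6 PB mice lay above the highest Con mouse in FR, FFPE, FR > FFPE and FR > OH.

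The PB mice fell into a lower and a higher set for Cyp3a13. In FR, mice 18B, 18D and 20D had 109, 131 and 131 CPM, near the Con range, and mice 75C, 80B and 20B had 212, 258.5 and 299 CPM. The same 3 mice were the highest in each preparation. Sample titles carry an L number, read here as the sequencing lane, and 18B and 18D shared theirs with FR Con. The lower mouse 20D shared lane 3 with the 3 higher mice in FR. With lane as a term, the log2 difference was 0.27 in FR (adjusted p = 0.831), 0.68 in FFPE (adjusted p = 0.193) and 0.81 in FR > OH (adjusted p = 0.190). In FR that fit rests on 18B and 18D, the only PB libraries on the lane of Con and both of the lower set. All PB libraries shared lane 4 in FR > FFPE and lane 5 in FR > OH. The same 3 mice were the higher ones in each, which describes the spread among PB mice and not PB against Con. The cause of this split was not tested. In FR > FFPE the lane cannot be told apart from PB treatment. The adjusted p stayed under 0.05 in 8, 3, 3 and 11 of 12 fits that left out 1 mouse in FR, FFPE, FR > FFPE and FR > OH. With TMM scaling the adjusted p was 0.0690 in FFPE and 0.0895 for FR > FFPE, and with limma it was 0.0959 in FR.

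Cyp3a16 and Cyp3a41a, known from perinatal and from female liver, had few reads and were below the filter. Cyp3a16 had 1 read in the 6 FR Con libraries together and 0.402 to 1.07 CPM (median 0.549) in FR PB. In the other preparations it had no reads in Con, and PB libraries ran from 0 to 1.02 CPM in FFPE, from 0.300 to 1.12 CPM in FR > FFPE and from 0.343 to 0.698 CPM in FR > OH. Against a floor of 3 counts over the Con group, the PB means were at least 10.6-fold higher in FR > FFPE and 8.76-fold in FR > OH, with counting error only in view. In FFPE, 3 of the 6 PB libraries held reads, 7.05 counts in all, of which 5.04 were in mouse 18D, and no bound is given.

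Cyp3a41a ran from 0 to 0.113 CPM in FR Con and from 0.280 to 1.62 CPM (median 0.708) in FR PB, without overlap. In FFPE, 1 Con library reached 0.301 CPM and 4 of 6 PB libraries lay above it. PB libraries ran from 0.259 to 2.35 CPM in FR > FFPE and from 0.406 to 2.01 CPM in FR > OH, against Con means of 0.0125 and 0 CPM. Without a filter on low counts, both genes were also called higher in PB in some preparations, so that 6 of 8 members were called in FR, FFPE and FR > FFPE and 7 in FR > OH. The share of all genes called higher in that fit, with 18841 genes tested, was 1.43% in FR and 1.36% in FFPE, and FR > FFPE gave 1.42% and FR > OH 1.73%. Among the Cyp3a rows outside the set, Cyp3a44 averaged 0.217 CPM in frozen Con liver and 4.22 CPM in frozen PB liver, Cyp3a41b had 0.0214 and 0.108 CPM, and Cyp3a57 had 0.0138 and 0.0411 CPM.

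Cyp1a2, the constitutive hepatic Cyp1a enzyme that metabolises caffeine, rose in every preparation. FR libraries ran from 237 to 503 CPM (median 357) in Con and from 931 to 1297 CPM (median 1172) in PB, and the lowest PB mouse was 1.85-fold above the highest Con mouse. The log2 difference in FR was 1.61 ± 0.15 (adjusted p = 3.28e-11). FFPE libraries ran from 198 to 295 CPM in Con and from 671 to 840 CPM in PB, a log2 difference of 1.69 ± 0.15 (adjusted p = 9.31e-12).

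Cyp1a2 was also called higher in both frozen-then-embedded preparations. FR > FFPE libraries ran from 237 to 398 CPM in Con and from 692 to 950 CPM in PB, with a log2 difference of 1.54 ± 0.15 (adjusted p = 1.1e-10). FR > OH libraries ran from 210.0 to 428 CPM in Con and from 1055 to 1359 CPM in PB, with a log2 difference of 2.07 ± 0.15 (adjusted p = 1.24e-14). PB and Con did not overlap in any preparation. The sum of Cyp1a1 and Cyp1a2 gave 1.61, 1.69, 1.54 and 2.06 in FR, FFPE, FR > FFPE and FR > OH.

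Cyp1a1, the most AhR-dependent member, had group means of 0.662 to 2.18 CPM, with 1.00 to 28.1 counts per library. FR libraries ran from 0.395 to 1.48 CPM (median 0.932) in Con and from 1.04 to 1.69 CPM (median 1.33) in PB. These groups overlapped, and the log2 difference was 0.50 ± 0.32 (adjusted p = 0.393, 95% interval -0.15 to 1.15). FR > FFPE libraries ran from 0.364 to 1.60 CPM in Con and from 1.64 to 2.24 CPM in PB, without overlap, and the log2 difference of 0.99 ± 0.34 missed the threshold (adjusted p = 0.0629). Without Con mouse 8C (1.09) or 8D (1.26), Cyp1a1 in FR > FFPE was called.

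In FFPE, Cyp1a1 ran from 0.340 to 0.992 CPM in Con and from 1.50 to 3.26 CPM in PB, and the log2 difference of 1.72 ± 0.39 was called (adjusted p = 0.0029). The call held with lane as a term (1.88, adjusted p = 0.000971) and within 1 lane (1.87, adjusted p = 0.0232). In FR > OH, Con ran from 0.111 to 2.18 CPM and PB from 1.48 to 3.02 CPM, and 1.37 ± 0.34 was called (adjusted p = 0.00436). That call was lost with lane as a term (0.75, adjusted p = 0.329) and within 1 lane (0.75, adjusted p = 0.507), and its adjusted p was 0.0734 when only these 2 groups were fitted. Cyp1a2, which shares sequence with Cyp1a1 and was far more abundant per kilobase, rose in the same comparisons, and its part in the Cyp1a1 values was not tested.

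**Figure D2:**
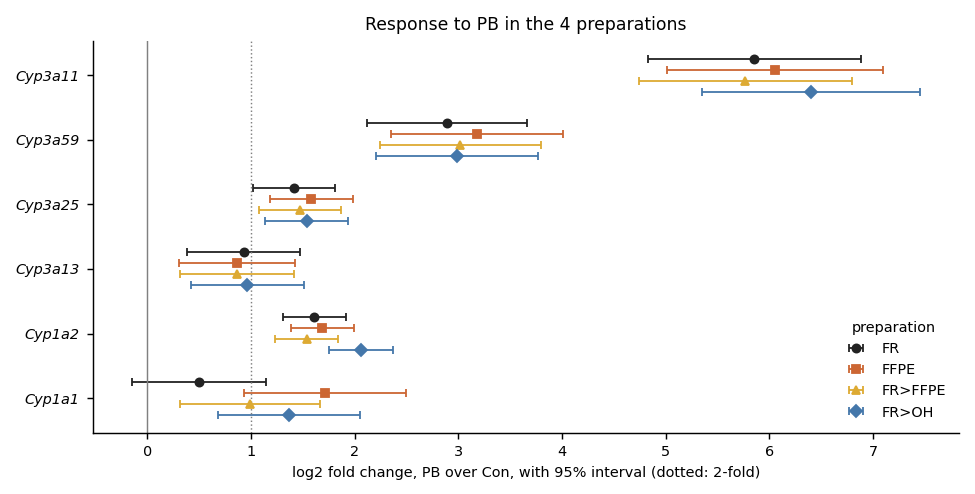
Log2 difference between PB and Con for the 6 members tested, by preparation, with 95% intervals from edgeR (6 mice per group, dotted line at a 2-fold change). Cyp3a11 lies between 5.77 and 6.40, Cyp3a59 near 3, Cyp3a25 and Cyp1a2 between 1.42 and 2.07, and Cyp3a13 below 1.

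The families were set against each other within each library, which cancels library size. Cyp3a11 outgrew Cyp1a2, and no such rise was seen for Cyp3a25. In FR, the ratio of Cyp3a11 to Cyp1a2 went from 0.320 in Con to 7.06 in PB, a 22.1-fold rise (exact two-sided permutation test, p = 0.00216). The rise was 23.9-fold in FFPE, 21.5-fold in FR > FFPE and 22.2-fold in FR > OH, with all 6 PB mice above all 6 Con mice each time. Ratios of this kind were tested in 20 comparisons in all.

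Cyp3a25 and Cyp1a2 rose by factors close to each other. Their ratio was 0.913 in FR Con and 0.793 in FR PB (exact permutation test, p = 0.301), which does not show that they responded alike. In FR > OH it fell from 1.07 to 0.729 (exact permutation test, p = 0.00433). The ratio of Cyp3a59 to Cyp1a2 rose 2.39-fold in FR (exact permutation test, p = 0.00433), 2.94-fold in FFPE (p = 0.0130) and 2.59-fold in FR > FFPE (p = 0.0108). In FR > OH it was 1.92 times as high with PB (exact permutation test, p = 0.0563), with 3 of 6 PB mice above the highest Con mouse. Within the Cyp3a family, the ratio of Cyp3a11 to Cyp3a25 rose 25.4-fold in FR, 26.0-fold in FFPE, 23.0-fold in FR > FFPE and 32.6-fold in FR > OH.

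Summed over members, Cyp3a reads in FR went from 578 ± 148 CPM with Con to 9232 ± 2584 CPM with PB, and Cyp1a from 366 to 1117 CPM. FFPE gave 386 and 4618 CPM for Cyp3a and 237 and 766 CPM for Cyp1a. FR > FFPE gave 554 and 6785 CPM for Cyp3a and 296 and 859 CPM for Cyp1a. FR > OH gave 466 and 7249 CPM for Cyp3a and 287 and 1199 CPM for Cyp1a. Cyp1a1 was a negligible part of its family sum in every group.

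The make-up of the Cyp3a sum, in CPM and without correction for length, turned over with PB. Cyp3a25 supplied 58.1% of it in FR Con and 9.97% in FR PB. Cyp3a11 supplied 22.3% ± 9.4 (SD, n = 6) in FR Con and 87.5% ± 2.0 in FR PB. In the other preparations the Cyp3a11 share went from 13.6% to 79.2% (FFPE), from 17.3% to 81.7% (FR > FFPE) and from 14.7% to 83.98% (FR > OH). Cyp3a13 went from 18.4% to 2.05% in FR although its own CPM was higher in PB.

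**Figure D3:**
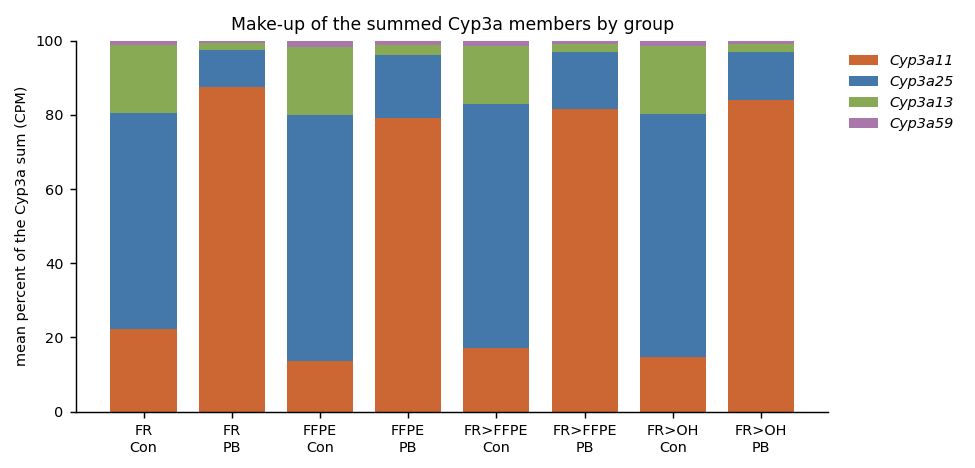
Mean percent of the summed CPM of the 6 Cyp3a members supplied by each of them, by preparation and treatment (6 mice per group). Cyp3a25 is the largest part in every Con group, with 58.1% in FR, and Cyp3a11 in every PB group, with 87.5% in FR. Cyp3a16 and Cyp3a41a are too small to be seen.

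Among the receptors, the gene of AhR was called higher in PB and those of PXR and CAR were not. Ahr averaged 49.99 CPM without and 110 CPM with PB in FR, a log2 difference of 1.14 ± 0.12 (adjusted p = 3.44e-10). FFPE gave 1.10, FR > FFPE gave 1.31 and FR > OH gave 1.46, called each time. Nr1i2 went from 35.5 to 49.97 CPM in FR (0.49 ± 0.11, adjusted p = 0.00276), under 2-fold, with 0.24 in FFPE (adjusted p = 0.260). Nr1i3 had 23.0 and 22.2 CPM in FR (-0.05 ± 0.25, adjusted p = 0.943), and Arnt differed by -0.18 ± 0.10 (adjusted p = 0.297).

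In a list of 14 CAR and PXR receptors and partners, 5 passed the adjusted p in FR, all under 2-fold. Nr1i2 was higher, and those that were lower included the retinoid receptor gene Rxra (-0.36), the liver factor gene Hnf4a (-0.27) and the co-activator gene Ncoa2 (-0.25). At the same criterion FFPE gave 2, both lower, FR > FFPE gave 1, which was higher, and FR > OH gave 3, all lower. The share of all genes at this criterion is not given, so the counts are a description. Of 8 genes of the AhR complex and its repressor, 6 were tested and Ahr alone was called.

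Other targets of the same receptors were read beside the members. Of 28 other CAR and PXR targets, 25 were tested and 21 were called higher in FR, with a median log2 difference of 2.96 against 0.0035 over all genes tested. The counts were 21, 22 and 22 in FFPE, FR > FFPE and FR > OH. The largest were Cyp2b10 (12.40 ± 0.35, 0.340 to 1890 CPM), the classic phenobarbital-induced P450, Cyp2c55 (9.02 ± 0.28) and the glutathione transferase gene Gsta1 (6.36 ± 1.00).

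Of 8 other AhR targets, 6 were tested and 1 was called in FR. It was Nqo1, a quinone reductase gene shared with the Nrf2 pathway, which went from 1.78 to 4.07 CPM (1.19 ± 0.35, adjusted p = 0.0227). Nqo1 was also called in FR > FFPE (1.46, adjusted p = 0.00858) and FR > OH (1.69, adjusted p = 0.0014), and not in FFPE (1.25, adjusted p = 0.0652). Ugt1a6a (0.56) and Ugt1a6b (0.58), glucuronidation genes, passed the adjusted p under 2-fold. The list's median was 0.57. Among 9 genes of electron supply and haem synthesis, the P450 reductase gene Por (2.38 ± 0.27, 49.3 to 257 CPM) and the cytochrome b5 gene Cyb5a (1.35 ± 0.11) were called higher in FR.

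Position along the liver lobule was followed with marker lists, since many P450 genes are known to be highest near the central vein. Of 8 pericentral genes, 4 passed the adjusted p in FR, 1 higher and 3 lower, and their sum was 5039 CPM in Con and 5339 CPM in PB. FFPE and FR > FFPE gave the same counts, whereas in FR > OH 3 passed, all higher. The share of all genes at this criterion is not given, so these counts are a description. The list's median log2 difference was -0.47 in FR and 0.05 in FR > OH. Of 8 periportal genes, Pck1, the gluconeogenic enzyme, was called lower (-1.36 ± 0.24). The sum of hepatocyte markers was 68823 CPM in FR Con and 52083 CPM in FR PB. Their part in the PB response of the members was not tested.

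The level of some members in the embedded preparations differed from that in FR. The authors also shortened the fragmentation of FFPE samples, which cannot be told apart from preservation. Cyp3a11 was lower in FFPE than in FR by a log2 difference of -1.34 ± 0.43 in Con (adjusted p = 0.00649) and -1.15 ± 0.42 in PB (adjusted p = 0.0165), which was called. Cyp1a2 was lower by -0.63 in Con (adjusted p = 0.000365) and -0.55 in PB (adjusted p = 0.00144), under 2-fold. Cyp3a25 (-0.37 and -0.20) and Cyp3a59 (0.07 and 0.36) did not pass. Cyp3a13 differed by -0.57 in Con (adjusted p = 0.0713) and -0.64 in PB (adjusted p = 0.0383).

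Among all genes tested, 10.8% were called in the same direction in Con and PB in FFPE vs. FR, 3.98% in FR > FFPE vs. FR and 2.56% in FR > OH vs. FR. Genes lower in both treatments at the adjusted p alone were 11.7%, 4.95% and 6.02%. Of the 6 members tested, 1 was called in FFPE vs. FR (Cyp3a11) and 2 were lower at the adjusted p (Cyp3a11 and Cyp1a2). With lane as a term, Cyp3a11 was not called (-1.19, adjusted p = 0.250 in Con, and -0.84, adjusted p = 0.382 in PB), and with lane and mouse both as terms it was lower (-1.26 and -1.21, adjusted p = 2e-11 in Con). The median of all genes stood 0.32 above FR in FFPE, so that relative to that median Cyp3a11 was at -1.66 and -1.47, Cyp1a2 at -0.95 and -0.87, Cyp3a13 at -0.89 and -0.96, and Cyp3a25 at -0.69 and -0.52.

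As every mouse was prepared in all 4 ways, the mouse was also fitted as a block. With the block, the share of genes lower in both treatments was 14.4% in FFPE, while FR > FFPE gave 7.91% and FR > OH gave 10.2%. In FFPE, 4 members were lower in both treatments: Cyp3a11 (-1.33 ± 0.07 and -1.15 ± 0.06), Cyp1a2 (-0.60 ± 0.07 and -0.54 ± 0.06), Cyp3a13 (-0.57 ± 0.05 and -0.66 ± 0.05) and Cyp3a25 (-0.38 ± 0.06 and -0.24 ± 0.06). In FR > FFPE, 3 were lower: Cyp3a11 (-0.43 and -0.55), Cyp1a2 (-0.30 and -0.38) and Cyp3a13 (-0.30 and -0.38). In FR > OH, 2 were lower: Cyp3a11 (-0.93 ± 0.07 and -0.44 ± 0.06) and Cyp3a13 (-0.32 and -0.32).

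Mouse by mouse, Cyp3a11 and Cyp3a13 were below FR in 12 of 12 mice in FFPE, FR > FFPE and FR > OH. Cyp1a2 was below FR in 12, 11 and 8 mice, and Cyp3a25 in 12, 3 and 7. Cyp3a59, the close relative of Cyp3a25, was below FR in 5, 3 and 3 mice, and Cyp1a1 in 5 in each. For Cyp1a1 these 5 were all Con mice, of 6, whereas all 6 PB mice lay above FR in each preparation. The hepatocyte marker list moved with the first of these patterns, as 4 of its 5 genes were lower in FFPE vs. FR at the adjusted p, with a median of -1.26 in Con and -1.17 in PB. Its part in the members' values was not tested. The share of all genes below FR in all 12 mice was not counted, so the counts of mice are a description. In each mouse, all 3 preparations were set against the same FR library.

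**Figure D4:**
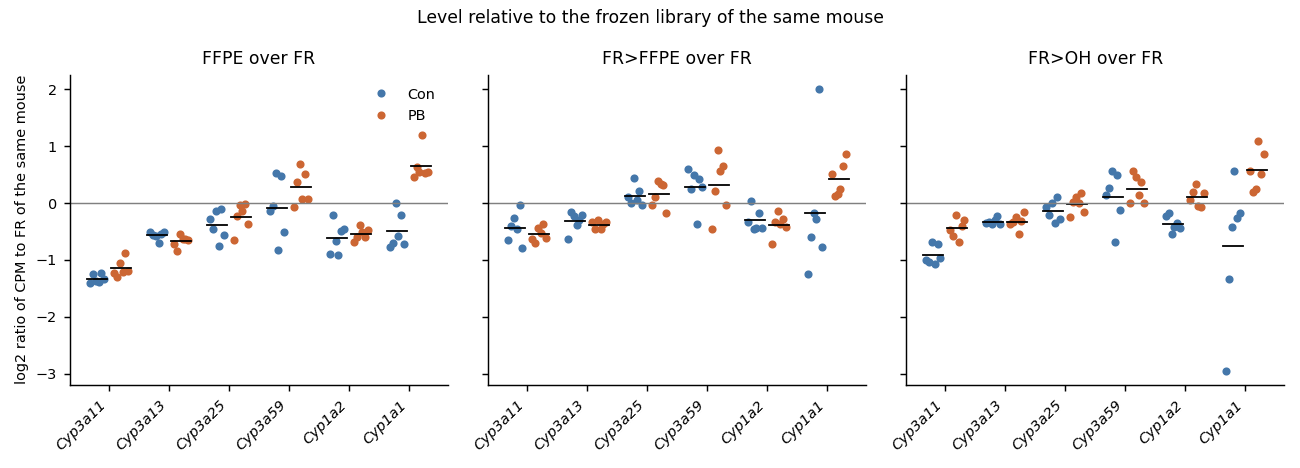
Log2 ratio of each embedded preparation to FR of the same mouse for the members tested (12 mice, coloured by treatment, bars are means). All 12 points of Cyp3a11 and of Cyp3a13 lie below 0 in each preparation, and in FR > OH the PB points of Cyp3a11 and Cyp1a2 lie above the Con points.

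The difference between the PB response of each embedded preparation and that of FR was fitted as an interaction. Without the block, 0% of genes passed for each of FFPE, FR > FFPE and FR > OH, and 463, 288 and 305 genes had an unadjusted p under 0.05 by edgeR. DESeq2 also called 0, with 525, 271 and 358 genes under an unadjusted 0.05, and limma had 547, 238 and 336 such genes. All these counts lie below a share of 0.05 of 13370 genes, which no difference would give. The fit without the block keeps the spread between mice in its error, so its lack of calls carries little weight. For Cyp3a11, the PB response differed from that in FR by 0.20 ± 0.59 in FFPE (95% interval -0.99 to 1.38) and by 0.54 ± 0.59 in FR > OH (95% interval -0.64 to 1.73). A PB response 2-fold larger than in FR lay within both intervals.

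With the mouse as a block, the shares were 0.00748% in FFPE, 0% in FR > FFPE (edgeR, adjusted p) and 0.277% in FR > OH, or 37 genes in the last, 34 of them with a larger PB response in FR > OH. Cyp3a11 and Cyp1a2 were among these 37. The PB response of Cyp3a11 was larger in FR > OH than in FR by 0.49 ± 0.088 (adjusted p = 0.00237) and that of Cyp1a2 by 0.47 ± 0.090 (adjusted p = 0.00643), both under 2-fold. With each mouse left out in turn, the adjusted p stayed at or under 0.0246 and 0.0448. With lane as a further term the sizes were 0.39 and 0.42, and neither passed (adjusted p = 0.666 and 0.680).

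The same difference was read in the log2 ratios of FR > OH to FR of single mice. For Cyp3a11 they averaged -0.91 ± 0.17 (SD) in Con and -0.44 ± 0.18 in PB, and all 6 PB mice lay above all 6 Con mice. For Cyp1a2 they averaged -0.36 in Con and 0.11 in PB, again without overlap. The exact two-sided permutation test gave p = 0.00216 for both, the smallest possible, among 18 tests of this kind. Among mice whose FR library was on lane 2 and FR > OH library on lane 5 (3 Con and 2 PB), the Cyp3a11 ratio was -0.92 (range -1.07 to -0.71) in Con and -0.53 (-0.58 to -0.48) in PB, and the Cyp1a2 ratio was -0.40 and 0.12.

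The pericentral list moved the same way. Its sum was 5039 CPM in FR Con and 3613 CPM in FR > OH Con, against 5339 and 5182 CPM in PB, whereas it was 3995 and 4056 CPM in FFPE Con and PB. The sinusoidal endothelium markers went from 301 to 202 CPM in Con and from 297 to 227 CPM in PB. Their part in the result was not tested. For Cyp1a1, the ratio of FFPE to FR averaged -0.50 in Con and 0.65 in PB, without overlap (exact permutation test, p = 0.00216), whereas the fitted interaction was 1.20 ± 0.46 with the block (edgeR, adjusted p = 0.485). The Cyp1a1 ratio of FR > OH to FR averaged -0.76 in Con and 0.58 in PB (exact permutation test, p = 0.00866), and the fitted interaction was 0.95 ± 0.41 (edgeR with the block, adjusted p = 0.499).

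**Figure D5:**
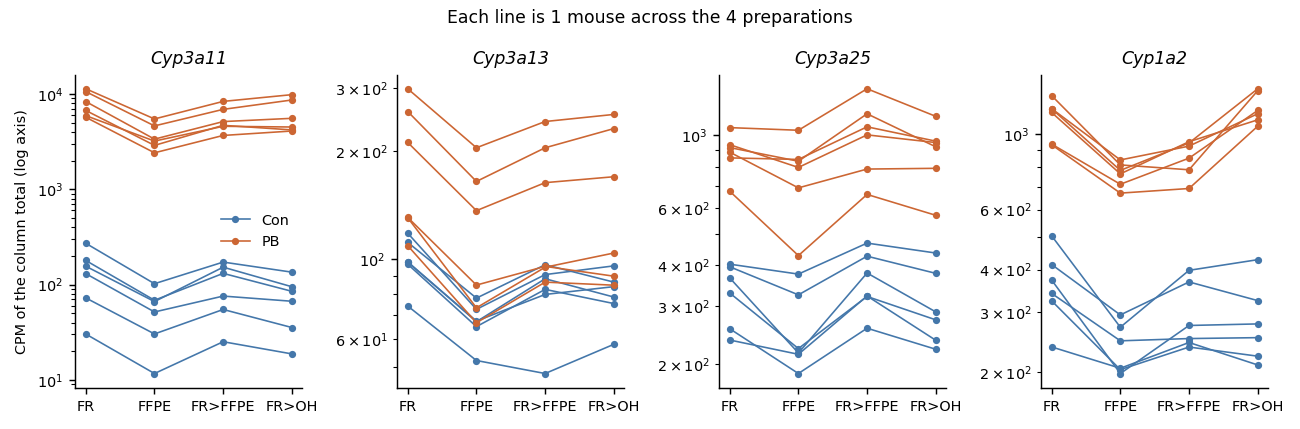
CPM on a log axis of Cyp3a11, Cyp3a13, Cyp3a25 and Cyp1a2 in the 4 preparations, each line 1 mouse (6 Con, 6 PB). Lines of Cyp3a11 and Cyp3a13 run nearly parallel, with 98.8% of the spread of Cyp3a11 in Con between mice.

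Differences between mice of a treatment came back in all 4 preparations. Within treatment and with preparation means taken off, the share of the spread of log2(CPM + 1) that lay between mice was 98.8% in Con and 96.2% in PB for Cyp3a11, 90.1% and 99.0% for Cyp3a13, 90.97% and 90.8% for Cyp3a25, 89.8% and 91.5% for Cyp3a59, 85.7% and 65.4% for Cyp1a2, and 52.9% and 54.3% for the sparse Cyp1a1. Untreated mice differed widely in Cyp3a11, and mouse 21C was the highest and 8A the lowest in each preparation, 8.95-fold apart in FR, 8.76-fold in FFPE, 6.85-fold in FR > FFPE and 7.21-fold in FR > OH. PB mice were closer, with 20B the highest and 18B the lowest in each, 1.99-fold, 2.27-fold, 2.28-fold and 2.41-fold apart.

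The Cyp3a members did not order the mice alike in Con. Mouse 21C, highest for Cyp3a11, was lowest for Cyp3a13 in all 4 preparations, and 8D was highest for Cyp3a25 and Cyp3a59 in all 4. In PB, 20B was highest and 18B lowest for Cyp3a11, Cyp3a13, Cyp3a25 and Cyp3a59 alike. The lowest PB mouse was 80B for Cyp1a2 and 75C for Cyp1a1 in each preparation.

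Genes that varied most like Cyp3a11 over the 12 mice were Cyp2c29 (Pearson r = 0.998), Cyp2c50 (0.997), Cyb5a (0.997), Ugt1a1 (0.996) and Cyp2c54 (0.996), out of 12300 genes. All points share the split between Con and PB and the same libraries, so that these are descriptions. With the treatment means taken off, the same 5 led, from 0.966 for Cyp2c29 to 0.924 for Cyp2c54. By the second measure Cyp3a11 had r = 0.671 with Cyp3a25, 0.542 with Cyp1a2, 0.259 with Cyp3a59, 0.215 with Cyp3a13 and 0.0445 with Cyp1a1.

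Cyp1a2 varied most like Cyp2c37 (r = 0.987), Cyp2c50 (0.986), Agxt2 (0.986), Cyp2c54 (0.984) and 9130409I23Rik (0.982). With treatment means taken off, none of these led, and the 5 were Gm12718 (0.939), Gm9776 (0.928), Tmem223 (0.925), Zc4h2 (0.916) and Ugt3a1 (0.903). As these are the largest of 12300 values over 12 mice, selection alone can give high r, and they are descriptions. The r of Cyp1a2 with Cyp3a13 was then -0.526.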

How the data were processed

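Total RNA of 48 mouse liver libraries was depleted of ribosomal RNA and sequenced in pairs on a stranded protocol. The authors called bases with CASAVA 1.8.2, aligned reads with STAR 2.5.3a to GRCm38 and divided them among RefSeq transcripts with the expectation maximization step of Partek Flow, so the deposited table holds estimated counts per gene, of which 92.0% are whole. A second deposited table holds the authors' log2 CPM of 13370 genes. Its divisor, called total reads here, was inferred from the counts and these values.

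Here estimated counts were rounded to whole numbers. A gene was kept when its geometric mean was over 1 count (offset 1e-04), which left 13370 of 24543. Reads mapping to similar rows may be divided between them. Library size was the column total. The quasi-likelihood test of edgeR 4.0.16 (R 4.3.3) was fitted to the 8 groups, with p-values adjusted over all genes tested, and a call needed an adjusted p under 0.05 and at least 2-fold. Preparation was called where Con and PB passed in one direction. Alternatives used limma 3.58.1, DESeq2 1.42.0, other library sizes and filters, lane, single mice left out, and the mouse as a replicate block. The labels give the mouse of each library, and 72 of 72 pairs of libraries from one mouse deviated together (median r = 0.703 over 7953 genes), so the numbers pair the samples. The fit without the block counts libraries of one mouse as independent in comparisons between preparations. It does so too in the spread that PB vs. Con shares over all 8 groups. Adjusted p of PB vs. Con near 0.05, as for Cyp3a13, may therefore be too small. The rule named all 8 members, the receptor genes Nr1i2, Nr1i3, Ahr and Arnt, every other Cyp3a row, the 3 genes of a list with the largest called PB change in FR, and the 5 genes most like Cyp3a11 and Cyp1a2 by Pearson's r over 12 mice. Ugt1a6a, Ugt1a6b, Rxra, Hnf4a and Ncoa2 were named after their values were seen. Members and gene lists were chosen with earlier results of these data known. Scripts were tested on simulated data. The number of per-sample columns left unmapped was 0. Transcript lengths came from GENCODE and promoters from RefSeq.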

Additional observations from a re-analysis of the deposited data

Results flagged for a closer look

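Among 52 groups of 6 libraries with enough reads, 5 held a library whose gap to its nearest neighbour passed Dixon's 95% criterion, where chance gives about 1 in 20. Cyp3a13 was lowest in mouse 21C in FR > FFPE Con, with 48.1 CPM against 79.9 CPM in the next mouse, and 21C was also the lowest in the other preparations. Cyp3a59 was highest in mouse 8D in FR Con, with 10.4 CPM against 5.94 CPM, and 8D was also the highest in the other preparations. Cyp3a16 was highest in mouse 80B in FR PB (1.07 CPM against 0.635 CPM) and in mouse 18B in FR > FFPE PB (1.12 CPM against 0.609 CPM), both from few reads. Cyp1a1 was highest in mouse 80B in FR > FFPE PB, with 2.24 CPM against 1.85 CPM.

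The PB response was larger in FR > OH than in FR for Cyp1a2 (log2 difference 0.47) and for Cyp3a11 (0.49) in the edgeR interaction with the mouse as a replicate block. Neither passed without the block, a fit that is conservative for interactions, or with lane as a further term.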

How the results depend on the processing

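The number of members called in FFPE vs. FR was 1. It was 4 with total reads as library size, 4 with limma on the authors' log2 CPM, 4 with the replicate block and total reads, 0 with lane as a term, and 2 at the adjusted p without a fold minimum. The other 311 summary counts, the PB calls among them, stayed within 1.5 times. Of single-gene values, 2643 were counted as unchanged, 103 moved, 39 newly passed and 5 no longer passed. A further 10 changed sign with the adjusted p passing in at least 1 of the fits compared. Where neither fit passed, a sign change of less than 1 SE was counted as unchanged and a larger one as moved. With lane as a term, Cyp3a13 in FFPE vs. FR, PB was 0.33. In the replicate block with total reads, Cyp3a25 was -0.25 (FR > FFPE, Con), -0.23 (FR > FFPE, PB) and -0.32 (FR > OH, PB), Cyp3a59 was -0.93 (FFPE, Con) and -0.66 (FFPE, PB), and Cyp1a2 was -0.19 (FR > OH, PB). In the block with TMM factors, Cyp3a25 was -0.19 (FR > FFPE, PB) and -0.22 (FR > OH, PB). Cyp3a59 was -1.05 in FFPE, Con with limma on log2 CPM. The cause was not tested. In Con, the all-gene median of FFPE against FR was 0.32 by column total and -0.64 by total reads. The alternatives that combine the block with TMM factors, total reads or lane, or with mice left out, and the summed rows were chosen after seeing the data. A lane term could not be fitted for PB in FR > FFPE or for FR > OH vs. FR. Cyp1a1, Cyp3a16 and Cyp3a41a are limited by depth.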
